A study of Homo sapiens with 48 samples.

Results

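Protein disulfide isomerases and oxidases make and rearrange the disulfide bonds of proteins that fold in the endoplasmic reticulum (ER). The genes described here were 10 of the 58302 genes in the count table, taken by symbol: P4HB, PDIA3, PDIA4, PDIA5, PDIA6, TXNDC5, TXNDC11, ERP44, QSOX1 and PRDX4. Their mRNAs were measured by RNA-seq in AMO1, a human multiple myeloma cell line from a plasmacytoma, in which short hairpin RNAs (shRNAs) were switched on by doxycycline (Dox). The shRNAs sat behind a Dox-inducible promoter on a vector, and each line is called a clone. In the labels, clones 1 and 3 of AMO-1 IRE1 sh7,8,9 (shIRE1 below) carry shRNAs against IRE1, whose gene is ERN1, and clones 1 and 18 of AMO-1 XBP1 sh4,6,7 (shXBP1) carry shRNAs against XBP1. Cells of the 4 clones were grown with 0.2 µg/ml Dox for 0, 24, 48 or 72 h, in biological triplicate, which gave 16 groups and 48 libraries. The 0 h groups carry the same vectors without Dox. No library with a non-targeting shRNA was analysed here, so any effect of Dox itself is part of every change from 0 h. The comparisons ask how silencing of the ER stress sensor IRE1, or of the transcription factor downstream of it, changed the mRNAs of the oxidative folding enzymes, and whether the responses differed.

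New secretory proteins enter the ER with their cysteines reduced. Isomerases of the PDI family, which carry thioredoxin-like domains, pass disulfides to these proteins and reshuffle wrong ones, and ERO1 oxidases or peroxiredoxins then make the isomerases ready for another round. Plasma cells depend on this machinery because antibody chains are joined by disulfides. IRE1 is a kinase and endoribonuclease of the ER membrane that splices the XBP1 mRNA, and the spliced form, XBP1s, encodes a transcription factor known for driving ER folding genes in plasma cells.

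Libraries held 19177855 to 40767202 counts, so 1 count was at most 0.0521 CPM (counts scaled to the library's total with TMM factors). ERN1 was at 149.8 to 154 CPM at 0 h and 100.4 to 103 at 72 h in shIRE1 clone 1, a log2 fold change of -0.58 ± 0.040 (estimate ± SE, as for all fold changes here). In shIRE1 clone 3 it was at 421 to 451 at 0 h and 122 to 128 at 72 h (-1.82 ± 0.049). XBP1, counted over both splice forms, was at 158 to 173 CPM at 0 h and 33.2 to 34.7 at 72 h in shXBP1 clone 1 (-2.32 ± 0.071), and at 166 to 178 and 31.7 to 41.7 in shXBP1 clone 18 (-2.16 ± 0.086, or -2.05 without the third 72 h library, which stood apart as given below). The gene that was not targeted moved too. At 72 h XBP1 was at -0.38 ± 0.037 and -0.86 ± 0.063 in shIRE1 clones 1 and 3, and ERN1 was higher in shXBP1 clone 1 (0.72 ± 0.044) and lower in clone 18 (-0.29 ± 0.060, or -0.22 without that library). Of 10 plasma cell markers, 9 were at 31.7 CPM or more in every library and CD27 was near 0 (at most 0.826 CPM), with a summed level of 8833 to 21657 CPM against 6.60 to 22.3 CPM for 12 markers of other blood and tissue cells. The latter sum, most of it CD3E, was at 7.23 to 8.25 CPM at 0 h and 18.5 to 21.2 at 72 h in shIRE1 clone 1 and at 8.89 to 9.06 and 18.7 to 19.7 in shIRE1 clone 3. It was at 6.60 to 7.49 and 7.35 to 7.68 in shXBP1 clone 1, and at 13.978 to 16.6 and 8.15 to 16.4 in shXBP1 clone 18. CD3D and PAX5 were at 0 in 42 and 43 of the 48 libraries. Of these 12 markers, 3 were called higher and 1 lower of 6 tested in shIRE1 clone 1 at 72 h, 4 and 0 of 4 in shIRE1 clone 3, 1 and 1 of 4 in shXBP1 clone 1 and 0 and 0 of 4 in shXBP1 clone 18. At 72 h, 6, 8, 3 and 5 of the plasma cell markers were lower and 3, 1, 4 and 0 higher in shIRE1 clones 1 and 3 and shXBP1 clones 1 and 18. XBP1, the target of shXBP1, is among these markers, and 9 of the 10 were tested in shXBP1 clone 18. Without the third 72 h library of that clone, 5 were lower and 1 higher there. Of all genes, 31.1%, 30.5%, 16.8% and 5.55% were lower and 32.5%, 29.7%, 16.8% and 4.41% higher at 72 h in the 4 clones. The part of either marker list in the changes below was not tested. Of 2 libraries that stood apart on scales of genes that part the clones, the library labelled shXBP1 clone 18, 72 h, replicate 3 had the expression pattern of shXBP1 clone 1. Over 55 genes that part these clones by at least 3 on the log2 scale, with clone 18 set to 0 and clone 1 to 1, its median position was 0.985, against 0.0199 and 0.0137 in the other 72 h libraries of clone 18. The library labelled shIRE1 clone 3, 24 h, replicate 1 lay apart from its group, at 0.728 against 0.0828 and 0.185, on the like scale from clone 3 to clone 1 over 26 genes that part the shIRE1 clones by at least 1. On that scale, which also moved with time, the 0 h libraries of clone 3 lay at 0.497 to 0.646 and the 24 h libraries of clone 1 at 0.892 to 1.04. The scale thus did not settle the clone of this library. ERN1 was at 143.8 to 146.4 CPM in the 24 h libraries of clone 3, this one included, and at 125.4 to 128.6 in those of clone 1. Values without these 2 libraries stand beside the results where a call or a direction changed or a value moved by over 1.5 times, and for the members in shXBP1 clone 18 at 72 h. Other replicates differed too, by the mean chi-square per gene between the counts of 2 libraries. In shXBP1 clone 1, replicate 1 at 0 h was at 43.1 and 43.6 from its mates, which were at 2.65 from each other. Replicates 1 and 2 of that clone at 24 h were at 62.1, the highest of all pairs. Each library was left out in turn among the alternatives below.

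Promoter sequences of RefSeq (GRCh38.p14, 250 bases before to 50 after each annotated start) were present for 9 of the 10 members, in 12 entries, and PDIA3 had none. They were searched on both strands for letters that XBP1s and ATF6, another ER stress factor, are known to bind. The UPRE core TGACGTGG stood in 2 members, TXNDC11 and TXNDC5, against 0.729% of all 35116 promoters. The ER stress element ERSE stood in PDIA6, against 0.0769% of all, and ERSE-II stood in no member promoter, against 0.0541%. ACGTGG, which the UPRE core contains, stood in 6 members, PDIA5, PDIA6, PRDX4, QSOX1, TXNDC11 and TXNDC5, against 9.72% of all. These matches are a description of letters and not evidence of binding. They are shown because the changes of these genes after shIRE1 and after shXBP1 are compared below, with the motif in capitals and 15 bases on each side, on the strand of the gene.
PDIA6: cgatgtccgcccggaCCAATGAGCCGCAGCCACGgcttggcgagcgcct
TXNDC11: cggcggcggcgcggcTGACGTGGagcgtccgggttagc
TXNDC5: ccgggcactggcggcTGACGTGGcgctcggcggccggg
PDIA5: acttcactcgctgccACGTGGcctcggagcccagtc
PRDX4: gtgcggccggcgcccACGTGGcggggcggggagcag
QSOX1: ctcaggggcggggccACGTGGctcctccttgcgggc
The stretches lie at chr2:10812838-10812886 (PDIA6, minus strand, first motif base 86 before the start), chr16:11742830-11742867 (TXNDC11, minus strand, 5 after the start), chr6:7910147-7910184 (TXNDC5, minus strand, 92 before), chr3:123066891-123066926 (PDIA5, plus strand, 119 before), chrX:23667396-23667431 (PRDX4, plus strand, 82 before) and chr1:180154797-180154832 (QSOX1, plus strand, 57 before). In PDIA5, PRDX4 and QSOX1 the ACGTGG shown overlaps a second match on the other strand. The promoters of P4HB, PDIA4 and ERP44 held none of these letters other than the CCAAT box, which 34.6% of all promoters hold.

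Before Dox, the members covered a wide range of levels per length of transcript. As CPM per kilobase of the MANE Select transcript (mean ± SD, n = 3), P4HB was at 444 ± 15.1 in shIRE1 clone 1 and 670 ± 22.4 in shXBP1 clone 18, and it ranked above all other members in each clone. PDIA6 came next, at 350.3 ± 0.655 to 543 ± 6.18, and in shIRE1 clone 1 its libraries overlapped those of P4HB. PDIA4 and TXNDC11 followed, at 139 to 290.4 and 125 to 197, with PDIA4 the higher in 3 clones and TXNDC11 the higher in shIRE1 clone 3. PDIA3 (73.6 to 108.0), PRDX4 (68.1 to 171), PDIA5 (38.3 to 60.6) and ERP44 (27.4 to 38.9) lay below them. QSOX1 (5.15 to 6.85) and TXNDC5 (4.38 to 7.91) were lowest and changed places between clones. Neighbours in this order whose libraries overlapped were P4HB and PDIA6 in shIRE1 clone 1, and PDIA3 and PRDX4, and TXNDC5 and QSOX1, in shIRE1 clone 3.

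**Figure D1:**
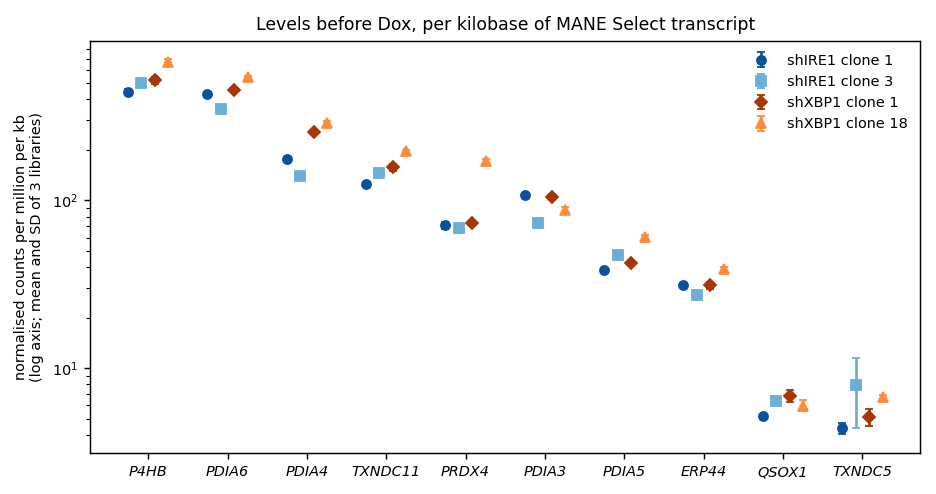
Level of each member before Dox, in CPM per kilobase of the MANE Select transcript on a log axis, with points for the mean of 3 libraries and bars for the SD, by clone. P4HB is highest in each of the 4 clones, from 444 to 670, and QSOX1 and TXNDC5 are lowest, from 4.38 to 7.91.

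The TXNDC5 level is uncertain, because 90.47% of the exon bases of its MANE Select transcript are shared on the same strand with the readthrough gene BLOC1S5-TXNDC5, and reads there may have been left out of both. PDIA3 is uncertain in another way. Its processed pseudogene PDIA3P1 held 0.352 to 0.426 times the CPM of PDIA3 in every library (median 0.397), so the reads of PDIA3 may be split between the copies. The fold changes of the summed rows stayed close to those of PDIA3 alone (at 72 h, -1.83 against -1.83 in shIRE1 clone 1 and -1.27 against -1.32 in shIRE1 clone 3). Genes on the opposite strand cover 45.33% of PDIA6, 21.68% of PDIA3, 21.67% of P4HB and 14.47% of TXNDC11, and the use of strand in counting is not stated. PDIA4, PDIA5, ERP44, QSOX1 and PRDX4 overlap no other annotated gene in their exons.

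After Dox, 9 of the 10 members fell in both shIRE1 clones, while P4HB, PDIA4 and PDIA5 were the members called lower in all 4 clones at all 3 times. PRDX4 joined them when the library of shXBP1 clone 18 that stood apart was left out, with values given below. In shIRE1 clone 1 the number called lower than at 0 h (adjusted p under 0.05, edgeR quasi-likelihood test over all genes) was 9 at 24 h, 9 at 48 h and 9 at 72 h, against 29%, 31.5% and 31.1% of the 17154 genes tested. QSOX1 alone was higher, at 24 and 48 h, when 32.4% and 33.9% of genes were. In shIRE1 clone 3 the numbers lower were 9, 9 and 10, against 23.3%, 31.6% and 30.5% of 17204 genes. In shXBP1 clone 1 they were 5, 6 and 8, against 12.8%, 15.5% and 16.8% of 16603 genes. In shXBP1 clone 18 they were 3, 5 and 7, against 1.3%, 3.5% and 5.55% of 16860 genes. Without the library that stood apart they were 4, 6 and 7, and the share of genes lower in that fit is not reported here. Genes called in either direction went from 268, 974 and 1680 with that library to 821, 2223 and 1300 without it. The 8 called in shXBP1 clone 1 at 72 h became 4 without replicate 2 or 3 of 72 h and 5 without replicate 1 of 72 h or replicate 2 of 0 h. The 5 called in shXBP1 clone 18 at 48 h became 3 without any one of the 0 h libraries or replicate 1 or 2 of 48 h. All 10 members passed the filter on low counts in each fit. In bulk RNA, fewer cells of a kind and less RNA per cell cannot be told apart.

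The median log2 fold change of the members was -0.38, -0.98 and -0.93 at 24, 48 and 72 h in shIRE1 clone 1 and -0.47, -1.10 and -1.12 in shIRE1 clone 3. For the shXBP1 clones these medians came to -0.21, -0.36 and -0.37 (clone 1) and -0.26, -0.30 and -0.46 (clone 18). Over all genes tested, the median of the same 12 comparisons lay between -0.0132 and 0.0421. The summed CPM of the 10 members fell from 3685 ± 45.8 at 0 h to 1746 ± 9.55 at 72 h in shIRE1 clone 1 (47.4% of 0 h) and from 3489 ± 45.4 to 1582 ± 30.1 in shIRE1 clone 3 (45.3%). In shXBP1 clone 1 the sums were 4266 ± 52.8 and 3301 ± 4.81 (77.4%), and in shXBP1 clone 18 they were 5146 ± 53.2 and 3612 ± 216 (70.2%, or 72.5% without the library that stood apart). P4HB and PDIA6, the most abundant members, dominate this sum.

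**Figure D2:**
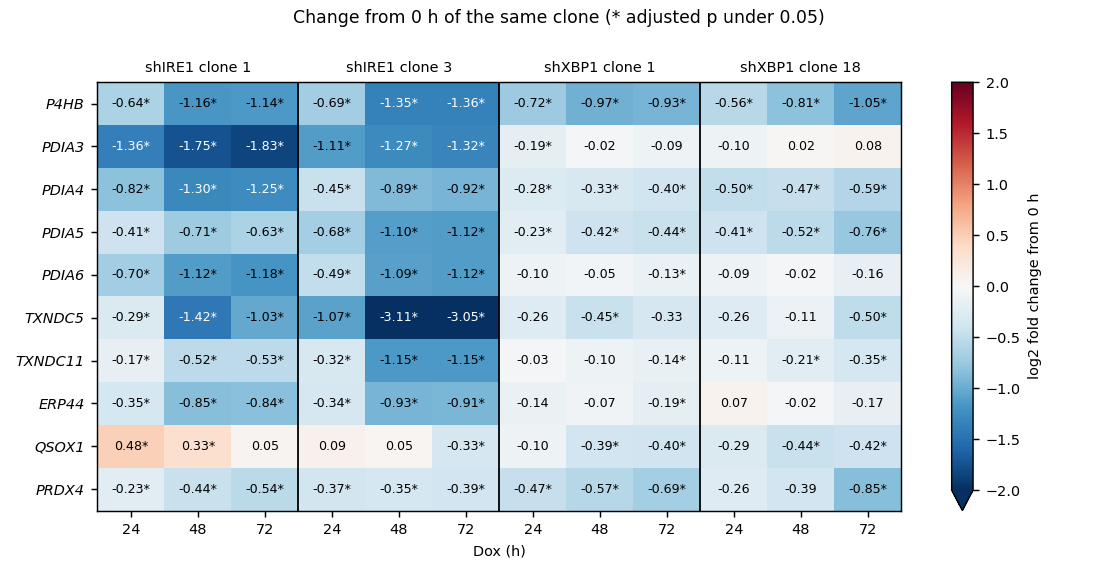
Log2 fold change of each member from 0 h of the same clone at 24, 48 and 72 h, with an asterisk where the adjusted p is under 0.05; blue is lower and red is higher, and values below -2 share the darkest blue. PDIA3, PDIA6 and ERP44 are dark in the shIRE1 clones (-1.83 for PDIA3 in clone 1 at 72 h) and pale in the shXBP1 clones, where P4HB is at -0.93 and -1.05.

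P4HB encodes the founding member of the family, an isomerase that is also the beta subunit of collagen prolyl 4-hydroxylase and a subunit of the microsomal triglyceride transfer protein (ENSG00000185624, chromosome 17, 81843159 to 81860856, minus strand, in GENCODE 44 on GRCh38, as for all positions of genes here). In shIRE1 clone 1 its libraries read 1051, 1073 and 1123 CPM at 0 h, 649, 689 and 757 at 24 h, 504, 478 and 466 at 48 h and 499, 484 and 489.7 at 72 h. Those of shIRE1 clone 3 read 1188, 1192 and 1272 at 0 h and 482, 478 and 475 at 72 h. All libraries after Dox lay below those at 0 h, and in clone 1 those at 24 h lay between 0 h and the later times. At 72 h the log2 fold change was -1.14 ± 0.051 in clone 1 and -1.36 ± 0.059 in clone 3, that is 45.3% and 39.0% of the 0 h level.

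P4HB fell in the shXBP1 clones as well. Clone 1 of shXBP1 had 1331, 1198 and 1264 CPM at 0 h, 718, 816 and 806 at 24 h and 691, 665 and 667 at 72 h. Clone 18 had 1665, 1569 and 1663 at 0 h, 1059, 1122 and 1141 at 24 h and 884, 825 and 649 at 72 h, where the last is the library that stood apart. All libraries after Dox lay below all at 0 h in both clones. The log2 fold change at 72 h was -0.93 ± 0.063 in clone 1 and -1.05 ± 0.087 in clone 18. P4HB had the lowest fold change of the 10 members in both shXBP1 clones at 24, 48 and 72 h. Without the library that stood apart, the 72 h value in clone 18 was -0.93.

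PDIA3 is the isomerase that calnexin and calreticulin bring to glycoproteins, and it is part of the MHC class I peptide-loading complex (ENSG00000167004, chromosome 15, 43746394 to 43773279, plus strand). In shIRE1 clone 1 it read 397, 405 and 391 CPM at 0 h, 156, 162 and 147 at 24 h and 109, 115 and 112 at 72 h. In shIRE1 clone 3 it read 281, 266 and 266 at 0 h, 134, 123 and 122 at 24 h and 105, 105 and 120.1 at 72 h. Most of the fall was there by 24 h, with log2 fold changes of -1.36 ± 0.042 and -1.11 ± 0.056, which were 74.4% and 84.5% of those at 72 h. At 72 h it stood at 28.1% and 40.2% of 0 h.

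In shXBP1 clone 1, PDIA3 read 366, 388 and 399.6 CPM at 0 h, 372, 308 and 347 at 24 h and 356, 371 and 371 at 72 h. In shXBP1 clone 18 it read 309.8, 329.5 and 332 at 0 h and 299, 311 and 410.4 at 72 h, the last again the library that stood apart. The groups overlapped. Of the 6 comparisons with 0 h, 24 h in clone 1 passed the test, at -0.19 ± 0.066 (adjusted p = 0.0478). At 72 h the 95% interval of the log2 fold change was -0.24 to 0.050 in clone 1 and -0.14 to 0.30 in clone 18. The estimate in clone 18 was 0.078, and it turned to -0.083 (adjusted p = 0.483, edgeR) without the library that stood apart.

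**Figure D3:**
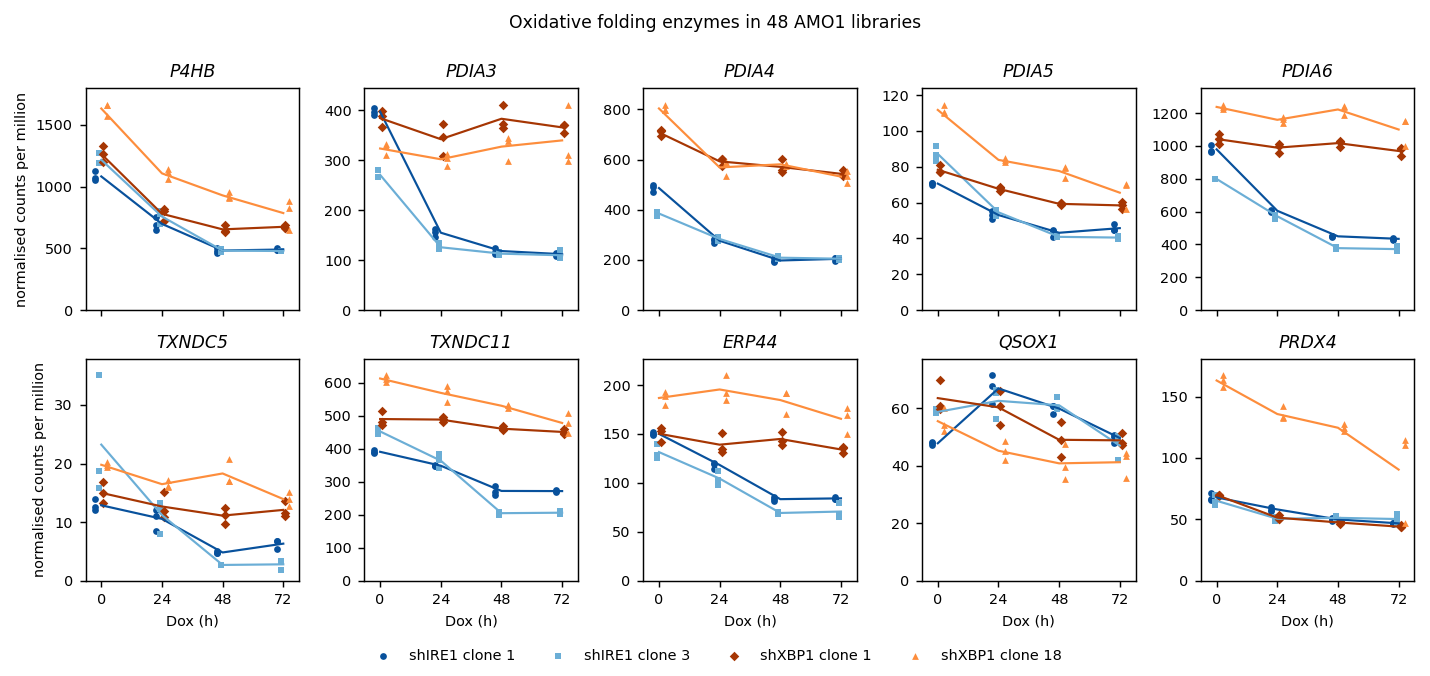
Normalised CPM of each member in all 48 libraries against hours of Dox, with a point for each library, shifted sideways by clone, and lines through the means of 3. The shIRE1 clones (blue) lie below the shXBP1 clones (orange and brown) at 48 h without overlap for all members except QSOX1 and PRDX4. For PDIA4, and narrowly for PDIA6 and TXNDC11, they do so at 0 h already. The share of all genes that do so was not computed at 48 h or at 0 h, so this describes the points only. PRDX4 starts high in shXBP1 clone 18 alone, and the 72 h point of that clone at 46.6 CPM is the library that stood apart.

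PDIA4, PDIA5 and PDIA6 are further isomerases with several or a pair of thioredoxin-like active sites, and PDIA6 works close to the chaperone BiP. PDIA4 (ENSG00000155660, chromosome 7, 149003062 to 149028662, minus strand) read 469.9, 497 and 492 CPM at 0 h and 208, 209 and 198 at 72 h in shIRE1 clone 1, and 373, 391 and 391 and 209, 204 and 202 in shIRE1 clone 3. Libraries after Dox lay below those at 0 h without overlap in both. The log2 fold change at 72 h was -1.25 ± 0.043 and -0.92 ± 0.048. In the shXBP1 clones it read 716, 696 and 712 at 0 h and 557, 535 and 537 at 72 h in clone 1, and 819, 796 and 796 and 536, 508 and 552 in clone 18, again without overlap. The fall there was smaller, -0.40 ± 0.050 and -0.59 ± 0.053 (-0.62 without the library that stood apart).

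PDIA5 (ENSG00000065485, chromosome 3, 123067025 to 123225227, plus strand), a less abundant isomerase, fell in all 4 clones. In shIRE1 clone 1 it read 70.9, 71.2 and 69.8 CPM at 0 h and 44.9, 44.6 and 47.9 at 72 h, and in shIRE1 clone 3 it read 91.4, 86.8 and 83.4 and 39.5, 41.3 and 40.6. In shXBP1 clone 1 it read 81.0, 76.8 and 77.2 and 56.4, 58.9 and 60.2, and in shXBP1 clone 18 115, 110.4 and 110.1 and 69.9, 70.2 and 56.6. No 72 h library reached a 0 h library of its clone. The log2 fold changes were -0.63 ± 0.049, -1.12 ± 0.053, -0.44 ± 0.048 and -0.76 ± 0.075 in that order, so shIRE1 clone 1 lay between the shXBP1 clones, as it did with clone 18 at -0.67 without the library that stood apart.

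PDIA6 (ENSG00000143870, chromosome 2, 10783391 to 10837977, minus strand) is the second most abundant member per length. It read 969, 1005 and 961 CPM at 0 h, 606, 608 and 599.5 at 24 h, 443, 452 and 453 at 48 h and 428, 441 and 433 at 72 h in shIRE1 clone 1. Clone 3 of shIRE1 had 798, 800.0 and 797 at 0 h and 365, 359 and 389.5 at 72 h. The 0 h and 72 h groups did not overlap, and the log2 fold change at 72 h was -1.18 ± 0.032 and -1.12 ± 0.044. Clone 1 of shXBP1 had 1013, 1072 and 1039.7 at 0 h and 939, 984 and 984 at 72 h, and in shXBP1 clone 18 1224, 1235 and 1252 and 1150.1, 1149.5 and 999. The 72 h libraries lay below those at 0 h, and the lowest of clone 18 was the library that stood apart. On the log2 scale the change was -0.13 ± 0.041 (adjusted p = 0.0333) in clone 1 and -0.16 ± 0.057 (adjusted p = 0.0829) in clone 18, and the 95% intervals reached down to -0.22 and -0.29. Without the library that stood apart the value in clone 18 was -0.10 (adjusted p = 0.172, edgeR).

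TXNDC5 and TXNDC11 are thioredoxin-domain proteins. TXNDC5 is an isomerase known for its abundance in plasma cells, and TXNDC11 is a membrane protein known from the maturation of dual oxidases and from ER-associated degradation. TXNDC5 (ENSG00000239264, chromosome 6, 7881517 to 7910788, minus strand) read 12.1, 13.998 and 12.6 CPM at 0 h, 11.1, 12.1 and 8.50 at 24 h, 4.66, 4.66 and 5.16 at 48 h and 5.38, 6.75 and 6.86 at 72 h in shIRE1 clone 1. In shIRE1 clone 3 it read 35.1, 15.9 and 18.7 at 0 h, 12.3, 8.04 and 13.3 at 24 h, 2.64, 2.72 and 2.73 at 48 h and 3.22, 3.40 and 1.79 at 72 h, and the first 0 h library lay well above its mates. The late libraries of both clones lay below all earlier ones. The log2 fold change at 72 h was -1.03 ± 0.12 and -3.05 ± 0.30, the latter the lowest of any member at 72 h, with the widest error. Without that 0 h library it was -2.64. In the shXBP1 clones the change at 72 h was -0.33 ± 0.14 (adjusted p = 0.0911) in clone 1 and -0.50 ± 0.094 (adjusted p = 0.00599) in clone 18, or -0.44 (adjusted p = 0.0110) in the latter without the library that stood apart. With the shared exons described above, these values may rest on a small part of the transcript.

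TXNDC11 (ENSG00000153066, chromosome 16, 11679083 to 11742857, minus strand) has no such shared exons and read 390.1, 386 and 395 CPM at 0 h, 349.6, 347 and 349 at 24 h and 272, 274 and 268 at 72 h in shIRE1 clone 1. The libraries of shIRE1 clone 3 gave 449, 445 and 463 at 0 h, 342, 384 and 365 at 24 h and 206, 202 and 211 at 72 h. Libraries at 24 h lay between those at 0 h and 72 h in both clones. Fitted log2 fold changes were -0.17 ± 0.039 at 24 h and -0.53 ± 0.039 at 72 h in clone 1, and -0.32 ± 0.049 and -1.15 ± 0.050 in clone 3. In the shXBP1 clones it reached -0.14 ± 0.043 in clone 1 and -0.35 ± 0.054 in clone 18 at 72 h (-0.31 without the library that stood apart).

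ERP44 retrieves ERO1 oxidases and unfinished antibody subunits from the early Golgi to the ER (ENSG00000023318, chromosome 9, 99979185 to 100099052, minus strand). It read 152, 149.7 and 149 CPM at 0 h, 119.7, 121 and 115 at 24 h, 83.1, 85.1 and 82.0 at 48 h and 83.6, 83.9 and 85.2 at 72 h in shIRE1 clone 1. Clone 3 of shIRE1 had 139.9, 129 and 126 at 0 h and 65.6, 67.6 and 79.0 at 72 h. The fall was stepwise to 48 h and level after it, with a log2 fold change at 72 h of -0.84 ± 0.038 and -0.91 ± 0.068. Clone 1 of shXBP1 had 142, 156 and 153 at 0 h and 130.2, 137 and 136 at 72 h, and in shXBP1 clone 18 179, 193 and 188 and 169.7, 177 and 149.9. The change there was -0.19 ± 0.060 (adjusted p = 0.0320) in clone 1 and -0.17 ± 0.075 (adjusted p = 0.166) in clone 18, where the library that stood apart was the lowest at 72 h. Without it the value was -0.10 (adjusted p = 0.399, edgeR).

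QSOX1 and PRDX4 are the oxidases of the group. QSOX1, a flavin-dependent sulfhydryl oxidase of the Golgi and the secretory route that makes disulfides by itself (ENSG00000116260, chromosome 1, 180154869 to 180204030, plus strand), did not follow the isomerases. In shIRE1 clone 1 it read 48.3, 47.1 and 48.0 CPM at 0 h, 61.4, 67.7 and 71.5 at 24 h, 60.8, 60.9 and 57.9 at 48 h and 50.8, 50.0 and 48.0 at 72 h. All libraries at 24 and 48 h lay above those at 0 h, and at 72 h the groups overlapped. On the log2 scale the change was 0.48 ± 0.055 (adjusted p = 4.56e-07) at 24 h, 0.33 ± 0.056 (adjusted p = 4.22e-05) at 48 h and 0.052 ± 0.057 (adjusted p = 0.438) at 72 h. Clone 3 gave 58.2, 58.2 and 59.8 at 0 h, 56.2, 65.2 and 66.3 at 24 h and 50.4, 48.5 and 42.1 at 72 h. The change there was 0.087 ± 0.079 (adjusted p = 0.392) at 24 h, or 0.16 (adjusted p = 0.0989) without the first library, which stood apart, and -0.33 ± 0.080 (adjusted p = 0.00219) at 72 h, when all libraries lay below those at 0 h.

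In the shXBP1 clones, QSOX1 was lower at the later times. It read 69.9, 60.8 and 59.8 CPM at 0 h and 51.4, 47.3 and 47.7 at 72 h in clone 1, and 60.2, 52.2 and 54.1 and 43.3, 35.8 and 44.5 in clone 18. The groups did not overlap, although the spread within them was wide. The log2 fold change at 72 h was -0.40 ± 0.10 (adjusted p = 0.0124) and -0.42 ± 0.11 (adjusted p = 0.0294), the latter -0.48 without the library that stood apart.

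PRDX4 is a peroxiredoxin of the ER that turns hydrogen peroxide, a by-product of ERO1, into oxidised isomerases (ENSG00000123131, chromosome X, 23664262 to 23686397, plus strand). In shIRE1 clone 1 it read 71.2, 66.8 and 65.6 CPM at 0 h and 46.9, 47.1 and 46.2 at 72 h, in shIRE1 clone 3 69.6, 64.1 and 61.7 and 49.4, 47.0 and 54.4, and in shXBP1 clone 1 69.3, 70.1 and 70.1 and 43.5, 43.4 and 45.3. The 3 clones lay close together at 0 h, and in each the 72 h libraries lay below those at 0 h without overlap. On the log2 scale these changes were -0.54 ± 0.048, -0.39 ± 0.062 and -0.69 ± 0.051. In shXBP1 clone 18 it read 164, 168 and 158 at 0 h, 133, 142 and 132 at 24 h, 124, 128 and 122 at 48 h and 111, 114 and 46.6 at 72 h. The level in clone 18 was above every library of the other clones, except in the library that stood apart, which read as the other clones did.

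With that library, the log2 fold change of PRDX4 in shXBP1 clone 18 was -0.85 ± 0.22 (adjusted p = 0.0315) at 72 h, and at 24 and 48 h it was -0.26 ± 0.22 (adjusted p = 0.678) and -0.39 ± 0.22 (adjusted p = 0.351), although no library overlapped 0 h. Without it the values were -0.26 (adjusted p = 0.00462), -0.39 (adjusted p = 0.000104) and -0.53 (adjusted p = 1.86e-05) at 24, 48 and 72 h, and all 3 passed the test.

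In the shIRE1 clones the members fell further from 24 to 48 h, and few changes were called after it. From 24 to 48 h, 10 members fell in shIRE1 clone 1 and 8 in shIRE1 clone 3, against 14.3% and 17.4% of all genes, and 7 in clone 3 without the library that stood apart, where PDIA3 went from -0.16 ± 0.056, adjusted p = 0.0403, to -0.12 (adjusted p = 0.137). From 48 to 72 h QSOX1 was the member called in both clones, at -0.28 ± 0.056 and -0.38 ± 0.079, against 0.496% and 0.424% of genes lower. Its adjusted p was 0.0170 and 0.0343, and with single libraries left out (in clone 1, replicates 1 or 2 at 48 h and 2 or 3 at 72 h, and in clone 3, any replicate at 48 h and 2 or 3 at 72 h) 0 members were called.

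The members differed in how much of the 72 h change was present at 24 h, both being measured from the same 0 h libraries. As a percent of the log2 change at 72 h, shIRE1 clones 1 and 3 had 74.4% and 84.5% for PDIA3, 65.4% and 48.5% for PDIA4, 66.0% and 60.9% for PDIA5, and 55.6% and 50.7% for P4HB. It was 59.3% and 43.8% for PDIA6 and 41.4% and 37.4% for ERP44. TXNDC11 (31.8% and 28.0%) and TXNDC5 (28.1% and 35.0%) had the least by then. PRDX4 had 42.1% in clone 1 and 96.5% in clone 3. Without the 24 h library that stood apart, the shares in clone 3 ran from 24.2% for TXNDC11 to 87.7% for PDIA3 and 100.3% for PRDX4.

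In the shXBP1 clones, members were not called between neighbouring times. From 24 to 48 h edgeR called 0 members in clone 1 and 0 in clone 18, while 4 (P4HB, PDIA3, PDIA5 and QSOX1) and 1 (P4HB) had an unadjusted p under 0.05. From 48 to 72 h it called 0 in both, and 1 (PRDX4) and 6 had an unadjusted p under 0.05. DESeq2 and limma called 0 in each of the 4 comparisons as well. Few genes of any kind were called there (0% and 0.012% in clone 1, 0% and 0% in clone 18). Without the library that stood apart, P4HB was called from 24 to 48 h in clone 18 (-0.25, adjusted p = 0.0236).

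The difference of response between the shRNAs was tested itself, as the change from 0 h in the shIRE1 clones minus that in the shXBP1 clones, each as the mean of 2 clones. It was called for 7 members at 24 h, 9 at 48 h and 9 at 72 h, against 38.7%, 56.9% and 55.3% of the 18445 genes tested. Of these, 6, 8 and 8 were lower after shIRE1, against 19.7%, 28% and 27.4% of genes, and QSOX1 was higher at each time. The error in this fit came from replicate libraries, so it does not measure the spread between clones of one shRNA. Single clones could overlap, as for PDIA5 at 72 h above, where shIRE1 clone 1 lay between the shXBP1 clones. At 24 h PDIA4 was at -0.45 in shIRE1 clone 3 and -0.50 in shXBP1 clone 18. PDIA5 was then at -0.41 in shIRE1 clone 1 and in shXBP1 clone 18 alike. QSOX1 at 72 h was nearer to the shXBP1 clones in shIRE1 clone 3 than in shIRE1 clone 1, as given above. The widest gaps at 72 h were those of TXNDC5 (-1.62 ± 0.20), PDIA3 (-1.56 ± 0.077) and PDIA6 (-1.001 ± 0.041). ERP44 (-0.70 ± 0.065), PDIA4 (-0.59 ± 0.042) and TXNDC11 (-0.59 ± 0.042) followed. For P4HB and PDIA5 the gap was smaller, -0.26 ± 0.068 and -0.27 ± 0.054, and at 24 h P4HB fell by amounts that were not distinguished (-0.029 ± 0.068, adjusted p = 0.768, 95% interval -0.17 to 0.11). Before Dox the libraries of shIRE1 lay below those of shXBP1 without overlap for PDIA4 (at most 497 against at least 696 CPM), and narrowly for PDIA6 (1005 against 1013) and TXNDC11 (463 against 473). The lower levels of these genes after shIRE1 were thus in part there at 0 h. The share of all genes that part the shRNAs in this way was not computed. Between the clones of one shRNA, 50.5% (shIRE1) and 57% (shXBP1) of genes did not overlap at 0 h. The 0 h difference between the shRNAs was not tested, and shRNA and clone cannot be told apart in it.

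PRDX4 was the member not called at 48 h (0.079 ± 0.14, adjusted p = 0.649) or 72 h (0.30 ± 0.14, adjusted p = 0.0620, 95% interval 0.022 to 0.58). Leaving out the library labelled shXBP1 clone 18, 72 h, replicate 3, its 72 h difference was 0.13 (adjusted p = 0.0182, edgeR), so that 10 members were called. The share of all genes called in the fit without it is not reported here. Without that library the other 72 h differences were -1.66 for TXNDC5, -1.50 for PDIA3, -1.04 for PDIA6, -0.74 for ERP44, -0.62 for TXNDC11, -0.59 for PDIA4, -0.33 for P4HB and PDIA5 alike, and 0.29 for QSOX1. The comparison rests on 2 clones of each shRNA, and clones of one shRNA differed from each other as given below. With clone 1 of each shRNA alone, 8, 8 and 9 members were called, and the share of all genes called in that fit is not reported here.

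**Figure D4:**
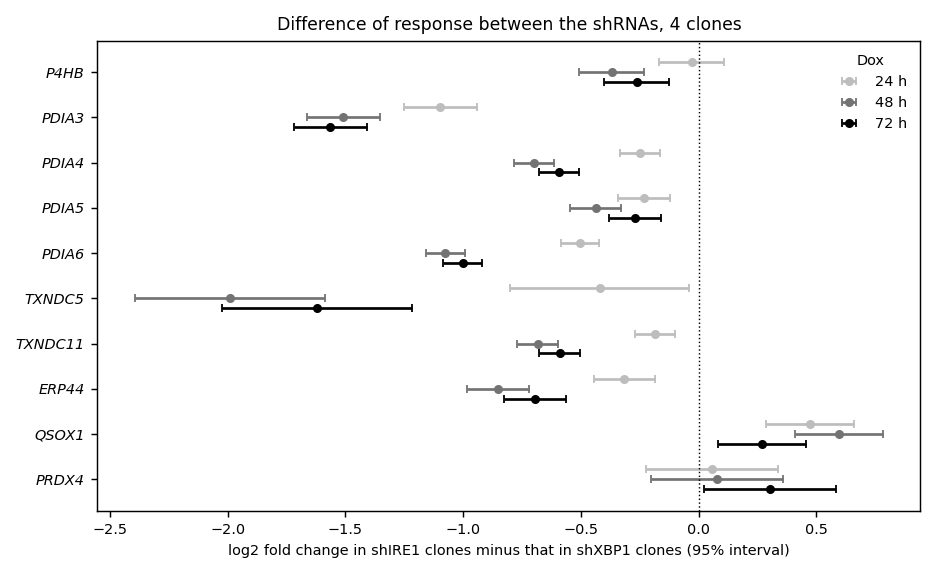
Change from 0 h in the shIRE1 clones minus that in the shXBP1 clones, on the log2 scale, for each member at 24, 48 and 72 h, with bars for the 95% interval. The error is that of replicate libraries and not of clones. PDIA3 (-1.56) and PDIA6 (-1.001) lie far left at 72 h, QSOX1 lies right of 0 at each time, and P4HB at 24 h and PRDX4 at 24 and 48 h cross 0.

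The clones of one shRNA differed before Dox. At 0 h, 9 members differed between shIRE1 clones 3 and 1, against 40.6% of genes, with 5 higher and 4 lower in clone 3. TXNDC5 (0.85 ± 0.19) and PDIA5 (0.30 ± 0.054) were among the higher and PDIA3 (-0.55 ± 0.076) and PDIA4 (-0.34 ± 0.042) among the lower. The TXNDC5 difference was 0.43 (adjusted p = 0.0456, edgeR) without the first 0 h library of clone 3, and that of P4HB, at 0.17 ± 0.068 (adjusted p = 0.0444), was 0.15 (adjusted p = 0.0738) without the 24 h library that stood apart. Between shXBP1 clones 18 and 1, 8 members differed, against 51.3% of genes, with 7 higher and 1 lower in clone 18. PRDX4 (1.22 ± 0.14) stood out among the higher, followed by PDIA5 (0.51 ± 0.054), and PDIA3 (-0.25 ± 0.076) was the lower. QSOX1 joined as lower when either library that stood apart was left out (-0.23, adjusted p = 0.0377, and -0.22, adjusted p = 0.0464).

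The response also differed between shIRE1 clones 3 and 1, for 5 members at 24 h, 5 at 48 h and 6 at 72 h, against 28.2%, 30.8% and 27.5% of genes. At 72 h PDIA3 (0.52 ± 0.11) and PDIA4 (0.34 ± 0.060) fell less in clone 3, from the lower 0 h level given above. TXNDC5 (-2.01 ± 0.30), TXNDC11 (-0.61 ± 0.060) and PDIA5 (-0.48 ± 0.077) fell more, and the QSOX1 difference was -0.37 ± 0.13, from a change that was called in clone 3 and not in clone 1. Without the first 0 h library of clone 3 the TXNDC5 difference was -1.59 at 72 h, and at 24 h it went from -0.77 ± 0.27 (adjusted p = 0.0269) to -0.35 (adjusted p = 0.297). Without the shXBP1 library that stood apart, which enters the same fit, PDIA3 at 24 h (0.26, adjusted p = 0.0150) and P4HB at 72 h (-0.20, adjusted p = 0.0489) were called as well. Both clones ended at nearly the same level for P4HB, PDIA3 and PDIA4 at 72 h, at 491 and 478, 112 and 109.8, and 205 and 205 CPM. ERN1 itself started at 149.8 to 154 CPM in clone 1 and 421 to 451 in clone 3, and its part in these differences was not tested. Between shXBP1 clones 18 and 1 the response differed for 1, 1 and 3 members, against 17.1%, 24.1% and 24.6% of genes. PDIA4 was called at each time, though at 48 h it was lost when any single library of the groups compared was left out (-0.24 ± 0.059, -0.16 ± 0.059 and -0.21 ± 0.059), joined at 72 h by PDIA5 (-0.35 ± 0.076) and TXNDC11 (-0.24 ± 0.060). Without the library that stood apart, 3, 1 and 2 members were called, and the share of all genes called in that fit is not reported here. PRDX4 (0.20 and 0.19) was among them at 24 and 48 h, and PDIA5 at 24 h (-0.19, adjusted p = 0.0216, edgeR). PDIA4 was no longer called at 48 h (-0.13, adjusted p = 0.0944), nor TXNDC11 at 72 h (-0.16, adjusted p = 0.0517). PDIA5 was at -0.22 at 72 h.

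How alike the members moved was described by Pearson's r over 12 group means, each the log2 difference of a group from the 0 h mean of its clone, which the 3 times of a clone share. Over the 45 pairs of members, r had a median of 0.591. TXNDC5 and TXNDC11 (0.974), PDIA6 and ERP44 (0.973), PDIA5 and TXNDC11 (0.953) and PDIA3 and PDIA6 (0.950) were the pairs most alike, and QSOX1 with PDIA3 (-0.775) the least. Among 12012 expressed genes, those most like PDIA6 included CANX, the lectin chaperone calnexin (0.993), and GLA (0.989). For ERP44 they included RPN1, a subunit of the oligosaccharyltransferase (0.990), and SEC11C, of the signal peptidase (0.984). For P4HB the 3 nearest were TMEM147 (0.966), LY6E (0.959) and MYDGF (0.954), and for PDIA3 its pseudogene PDIA3P1 (0.998), HSBP1 (0.997) and RMND5A (0.994). For PRDX4 no gene came above 0.829 (ARAF), followed by SNX22 (0.814) and SLC35A2 (0.797), and without the libraries that stood apart these were 0.673, 0.613 and 0.439. ZDHHC4 (0.970) and AL133467.1 (0.969) were among those nearest PDIA5. The other members' 3 nearest genes were FHL3, PEX11A and MSN for PDIA4 (0.968 to 0.969), SLC6A9, ERP29 and AP000251.1 for TXNDC5 (0.983 to 0.989), RNF157, ZFP64 and CYP51A1 for TXNDC11 (0.988 to 0.989), and P3H4, TKFC and ASL for QSOX1 (0.956 to 0.973).

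A list of 25 other ER oxidoreductases held 19 genes that were tested within each clone. At 72 h, 10 were lower and 5 higher in shIRE1 clone 1 and 14 lower and 3 higher in shIRE1 clone 3, with a median log2 fold change of -0.11 and -0.34. Of all genes tested, 31.1% and 30.5% were lower and 32.5% and 29.7% higher in these clones. ERO1A and ERO1B, the oxidases that recharge P4HB, were at -0.83 ± 0.045 and -0.61 ± 0.093 in clone 1 and at -0.77 ± 0.055 and -0.90 ± 0.095 in clone 3, all called lower. TMX1, a membrane-bound isomerase (-1.51 and -1.63), CRELD2, an ER stress-responsive cysteine-rich protein (-1.33 and -0.97), and ERP29, a PDI relative without the redox motif (-0.44 and -1.09), were the other large changes. In shXBP1 clones 1 and 18, 6 and 6 of the 19 were lower and 1 and 2 higher, with medians of -0.098 and -0.17. The shares of all genes in these clones were 16.8% and 5.55% lower and 16.8% and 4.41% higher. CRELD2 (-0.80 and -0.61), TXNDC15 (-0.54 and -0.69) and TXNDC12 (-0.65 and -0.45) fell there and CRELD1 rose (0.83 and 0.36). ERO1A was at 0.077 ± 0.11 and 0.25 ± 0.075 and ERO1B at 0.028 ± 0.11 and -0.54 ± 0.13, of which the clone 18 values passed the test, ERO1A as higher and ERO1B as lower. Without the library that stood apart, 6 were lower and 0 higher in clone 18, since CRELD1 (0.33, adjusted p = 0.0854, edgeR) and ERO1A (0.26, adjusted p = 0.0636) were no longer called.

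Of 10 genes whose products work with the members, 8 were tested. At 72 h 6 were lower and 2 higher in shIRE1 clone 1, 5 lower and 2 higher in shIRE1 clone 3, 5 lower and 2 higher in shXBP1 clone 1, and 4 lower and 1 higher in shXBP1 clone 18. In the same order, 31.1%, 30.5%, 16.8% and 5.55% of all genes were lower and 32.5%, 29.7%, 16.8% and 4.41% higher. CANX, which works with PDIA3, was at -1.18 and -1.16 in the shIRE1 clones and -0.30 and -0.33 in the shXBP1 clones. LMAN1, the cargo receptor that works beside ERP44, was at -1.23 and -1.50, and -0.49 and -0.66. P4HA1, the catalytic partner of P4HB in prolyl hydroxylase, fell in the shIRE1 clones (-0.65 and -1.12), and SUMF1, which ERP44 retains, rose (0.95 and 1.10). MZB1, a plasma cell cochaperone of antibody assembly (-1.29 and -1.60), and TAPBP, the tapasin that binds PDIA3 (-0.85 and -0.80), fell in the shXBP1 clones. Without the library that stood apart, 4 were lower and 2 higher in clone 18, where P4HA1 was then called higher (0.45, adjusted p = 0.00284, edgeR).

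Among 12 reporters of the unfolded protein response, 10 and 11 were lower at 72 h in shIRE1 clones 1 and 3, and 5 and 7 were lower with 3 and 2 higher in shXBP1 clones 1 and 18. The shares of all genes lower were 31.1%, 30.5%, 16.8% and 5.55% in this order, and 16.8% and 4.41% were higher in the shXBP1 clones. DNAJB9, a target of XBP1s, fell in all 4 clones (-1.39, -2.42, -0.83 and -1.65). HSPA5, the chaperone BiP, fell in the shIRE1 clones (-1.90 and -0.83) and was at -0.013 ± 0.039 and 0.25 ± 0.068 in the shXBP1 clones, the latter called higher with the library that stood apart and not without it (0.16, adjusted p = 0.0571, edgeR). HERPUD1 (-1.12 and -2.19) and EDEM1 (-0.66 and -1.93), both of ER-associated degradation, fell after shIRE1. SEC61B, of the translocon (-1.30 and -1.31), and SYVN1, a ubiquitin ligase of degradation (-0.85 and -0.71), fell after shXBP1. DDIT3, the stress factor CHOP, was higher in shXBP1 clone 1 (0.77) and lower in clone 18 (-0.49).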

How the data were processed

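RNA from 48 libraries of 4 AMO1 clones was sequenced with a stranded mRNA kit. Per the labels' processing notes, reads were aligned with GSNAP (2013-10-10) to GRCh37/hg19, while the study's methods name another build for a related experiment, so the build and annotation of the counts are not settled. The authors deposited a table of raw counts per gene for 58302 genes and a log2 table. The deposited log2 values equal log2 CPM from edgeR with TMM factors. Whether strand was used in counting is not given in the sources used here, and gene positions and overlaps are from GENCODE 44 on GRCh38, and the overlaps depend on that annotation.

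Here the counts were tested with edgeR (4.0.16, R 4.3.3) by its quasi-likelihood F test, within each clone over 12 libraries, after TMM scaling and filterByExpr (minimum count 10, minimum total 15), with Benjamini-Hochberg adjustment over all genes tested at 0.05. Differences of response and differences at 0 h came from 1 fit of all 48 libraries (18445 genes). Intervals are 95%. Members and gene lists were chosen with earlier results of these data known. From each other list the genes named were chosen by the rule fixed with the design, on the change at 72 h in both clones of an shRNA, and each member's 3 nearest genes by Pearson's r, of which some are not reported here. Alternatives were DESeq2 (1.42.0), limma (3.58.1) on the deposited log2 table, RLE factors, no filter, other sets of libraries, a replicate block, and leaving out each replicate. Leaving out the shIRE1 library that stood apart, and the values of list genes without either such library, were chosen after seeing the data. The fit was tested on simulated data. Depth was 19177855 to 40767202 counts a library.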

Additional observations from a re-analysis of the deposited data

Results flagged for a closer look

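The change from 0 h differed between the shRNAs (shIRE1 clones minus shXBP1 clones, edgeR interaction test over all genes, error from replicate libraries, log2 scale) for these members. At 24 h the difference was -1.10 for PDIA3, -0.25 for PDIA4, -0.23 for PDIA5, -0.50 for PDIA6, -0.18 for TXNDC11, -0.31 for ERP44 and 0.47 for QSOX1. At 48 h the difference was -0.37 for P4HB, -1.51 for PDIA3, -0.70 for PDIA4, -0.44 for PDIA5, -1.08 for PDIA6, -1.99 for TXNDC5, -0.68 for TXNDC11, -0.85 for ERP44 and 0.60 for QSOX1. At 72 h the difference was -0.26 for P4HB, -1.56 for PDIA3, -0.59 for PDIA4, -0.27 for PDIA5, -1.001 for PDIA6, -1.62 for TXNDC5, -0.59 for TXNDC11, -0.70 for ERP44 and 0.27 for QSOX1.

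The change from 0 h also differed between the shIRE1 clones, given as clone 3 minus clone 1. At 24 h the difference was 0.37 for PDIA4, -0.26 for PDIA5, 0.21 for PDIA6, -0.77 for TXNDC5 and -0.39 for QSOX1. At 48 h the difference was 0.49 for PDIA3, 0.42 for PDIA4, -0.38 for PDIA5, -1.68 for TXNDC5 and -0.62 for TXNDC11. At 72 h the difference was 0.52 for PDIA3, 0.34 for PDIA4, -0.48 for PDIA5, -2.01 for TXNDC5, -0.61 for TXNDC11 and -0.37 for QSOX1. Leaving out the library labelled shIRE1 clone 3, 24 h, replicate 1, QSOX1 at 24 h was -0.30 and no longer called. Leaving out the first 0 h library of shIRE1 clone 3, TXNDC5 at 24 h was -0.35 and no longer called (adjusted p = 0.297, edgeR).

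Between the shXBP1 clones, given as clone 18 minus clone 1, the change differed as follows. At 24 h the difference was -0.24 for PDIA4. At 48 h the difference was -0.16 for PDIA4. At 72 h the difference was -0.21 for PDIA4, -0.35 for PDIA5 and -0.24 for TXNDC11. Leaving out the library labelled shXBP1 clone 18, 72 h, replicate 3, PDIA4 at 48 h was -0.13 (adjusted p = 0.0944, edgeR) and TXNDC11 at 72 h was -0.16 (adjusted p = 0.0517, edgeR).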

How the results depend on the processing

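Under every alternative run, no member's change that was called in either fit reversed. A change of sign in a value called in neither fit, as for PDIA3 in shXBP1 clone 18, was not counted as a reversal. Of the values of single members under the alternatives, 4915 kept their side of the threshold, 179 lost the call and 46 gained one. In all cases below the cause was not tested. From 48 to 72 h, where QSOX1 was the member called, 0 members were called in shIRE1 clone 1 with all 48 libraries in one fit and 0 in shIRE1 clone 3 with only the 6 libraries compared, and 0 to 1 in each clone without single replicates. In shXBP1 clone 1, 3 members were called at 24 h with no filter and 3 with only the 6 libraries, and 5 at 72 h with no filter (4 to 6 without single replicates). In shXBP1 clone 18, 5 were called at 24 h with only the 6 libraries, 3 to 4 at 48 h without single replicates, 1 from 24 to 48 h with no filter and 1 without the library labelled 72 h, replicate 3, and 1 (all 48 libraries) and 3 (no filter) from 48 to 72 h. Of the differences between clones, with no filter 3 members were called for the shIRE1 clones at 24 h, and 0, 0 and 1 for the shXBP1 clones at 24, 48 and 72 h. The latter were 3 at 24 h once the library labelled shXBP1 clone 18, 72 h, replicate 3 was left out. At 48 h they were 0 under limma, DESeq2, RLE factors, the 24 libraries of the shRNA, without the library labelled shIRE1 clone 3, 24 h, replicate 1 (chosen after seeing the data), and 0 to 0 without single replicates.

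On average, samples with the same replicate number did not deviate together (mean correlation -0.0885 to -0.0105 over 18 pairs a clone). Single pairs ranged widely, from -0.807 to 0.667 in shXBP1 clone 1, so the mean cannot exclude a pairing between some times. With a replicate block, 0 members were called from 48 to 72 h in shIRE1 clones 1 and 3, 5 at 72 h in shXBP1 clone 1, and 0 for the shXBP1 clones at 48 h. The block changed no other count of members by over 1.5 times.

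Counts over all genes also moved. In shXBP1 clone 18 the 268 and 1680 genes called at 24 and 72 h became 838 and 3345 with all 48 libraries in one fit, and the 268, 974 and 1680 at 24, 48 and 72 h became 874, 2983 and 444 with only the 6 libraries compared. DESeq2 (504) and no filter (562) also raised the 24 h count, and no filter gave 2712 at 72 h. In shXBP1 clone 1 the 4430 at 24 h became 2086 with only the 6 libraries. From 48 to 72 h the 149 genes of shIRE1 clone 1 became 77 (all 48 libraries) and 249 (no filter), and the 161 of shIRE1 clone 3 became 873 (no filter) and 104 (block). Between neighbouring times in the shXBP1 clones the 0 to 2 genes called became at most 567 (clone 18, 48 to 72 h, no filter).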
